A study of Mus musculus with 15 samples.

Results

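RNA-Seq of the liver was compared between mice fed ad libitum (AL) and mice on dietary restriction (DR), with 1 library for each diet. These are 2 of the 15 libraries of the series, which also hold epididymal fat, colon, hypothalamus and hippocampus, and another diet, called DR-AL, that is not part of this comparison. Both groups were male C57BL/6 mice of 5 months of age. The AL mice ate freely throughout, and the DR mice were on 40% restriction for 1 month, from 4 months of age. RNA of 5 mice was pooled for each library, ribosomal RNA was depleted, and the libraries kept the strand of the RNA. The time of day and the time since the last meal at killing are not given in the sources used here. The loci were chosen by 1 rule, that they carry a gene name. This left 23589 of 33603 loci, of which 16884 had at least 1 count in either liver library and were tested.

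The liver stores the energy of a meal and releases it again between meals. When glucose and insulin are high, the transcription factors Srebf1 and Mlxipl drive the synthesis of fatty acids from glucose. When food is absent, Ppara drives the oxidation of fatty acids and the synthesis of ketone bodies, while G6pc and Pck1 release new glucose. In male mice the liver also has a sex-biased programme that follows the pulses of growth hormone, and much of its metabolism follows the clock.

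The counts on named loci totalled 24734599 in the AL library and 21767088 in the DR library. Every fold change below is DR over AL, from counts scaled to these totals with a pseudocount of 0.5, on the log2 scale unless said otherwise. The range given after a fold change is an exact 95% interval for counting error alone. A locus was called higher or lower in DR when it passed the Z test of the study's methods, adjusted for all loci tested, and was at least 25% above the other library. With 1 pooled library for each diet there is no replicate check, and the test compares 2 libraries, not 2 diets. Differences between pools of mice on the same diet could not be measured.

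Of the 16884 loci, 3148 (18.6%) were called higher and 1734 (10.3%) lower in DR. At a fold change of at least 2, 978 (5.79%) were higher and 469 (2.78%) lower. These numbers are the background for every group of genes below. The 2-fold counts were 653 and 329 when only loci with a mean of at least 10 counts were tested. They were 754 and 348 with an exact binomial test. With size factors in place of library totals, 2303 loci (13.6%) were higher and 2547 (15.1%) lower, so that the balance between the directions turned with the scaling. Over loci that averaged 10 counts or more, the median log2 fold change was 0.08 with totals and -0.03 with size factors. All 2303 loci called higher with size factors were also called higher with totals, and all 1734 called lower with totals were also called lower with size factors. Lists share some members, such as Cyp4a10, which is on the lists of fatty acid oxidation and of female-biased genes. The counts below use totals, and those with size factors are given where they differ by more than a few genes.

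**Figure D1:**
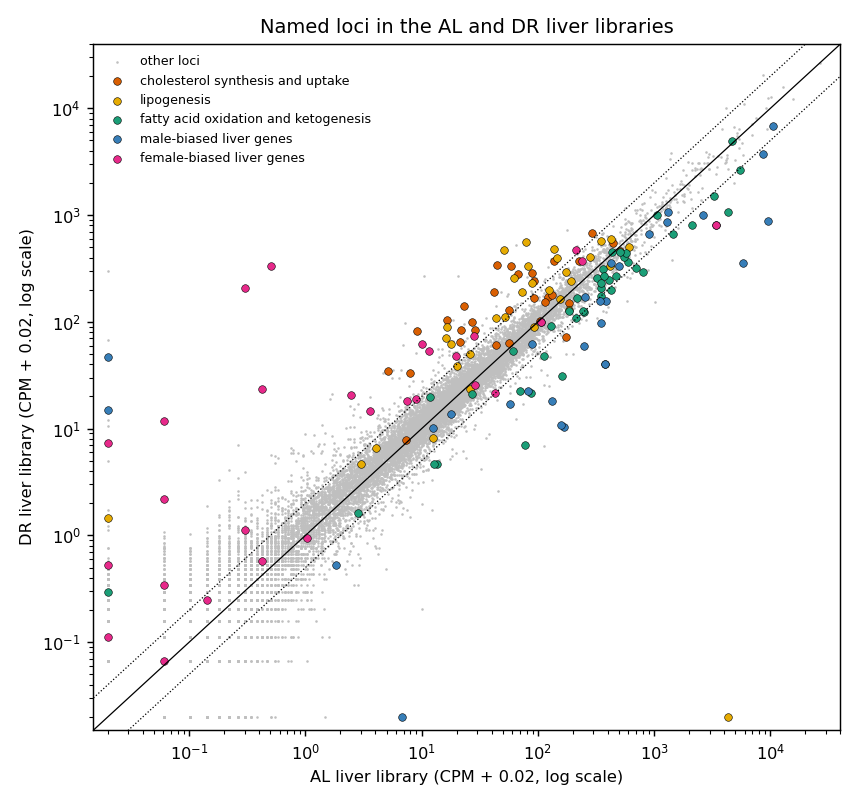
Level of each named locus in the AL library (x axis) and the DR library (y axis), in CPM (counts scaled to a total of 1000000) plus 0.02 on log scales, with 5 gene groups in colour, the line of equality and dotted lines at a 2-fold difference. Most genes of cholesterol synthesis and lipogenesis lie above the line, most genes of fatty acid oxidation and the male-biased genes below it, and loci on the axes were at 0 in 1 library.

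Genes that make fatty acids and cholesterol stood out as higher in the restricted liver. Of 31 genes of cholesterol synthesis and uptake tested, 24 were called higher, 18 of them at least 2-fold, and only Insig2 was lower. Of 32 genes of lipogenesis, 23 were called higher, 14 of them at least 2-fold, and 4 were lower. The medians were 1.37 and 0.86, against 0.08 for all loci, and stayed at 1.27 and 0.75 with size factors.

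In lipogenesis the regulators and the enzymes were both higher. Srebf1, the transcription factor of fatty acid synthesis, had 1553 counts in AL and 5659 in DR (log2 fold change 2.05, 1.97 to 2.13). Mlxipl, the glucose-responsive factor also known as ChREBP, had 3598 and 8688 counts (log2 fold change 1.46, 1.40 to 1.51). Among members with counts in both libraries, the largest difference was in Thrsp, a small protein that responds to thyroid hormone and promotes lipogenesis. Thrsp had 1268 counts in AL and 10350 in DR (log2 fold change 3.21, 3.13 to 3.30), and its paralog Mid1ip1 had 407 and 1952. The enzymes ran from the supply of acetyl-CoA to the finished chain. Fatty acid synthase, Fasn, had 1954 counts in AL and 12278 in DR, 7.14-fold higher. The enzymes that make acetyl-CoA and malonyl-CoA were higher. Acss2 had 2045 and 7177 counts, Acly 1814 and 4120, Acaca 1073 and 2361, and Acacb 638 and 1087. Elovl6, which lengthens the product, had 1293 and 2404, and Pklr, the pyruvate kinase of the liver, 2183 and 5080. Lpin1, a phosphatidate phosphatase that is also a nuclear coregulator, had 3373 and 10515 counts. Angptl8, which is secreted after a meal and restrains lipoprotein lipase, had 402 and 1542. Pnpla3, a lipase of the lipid droplet that insulin and Srebf1 induce, had 0 and 31 counts.

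Not all of the group followed. Agpat2, an acyltransferase of triglyceride synthesis, was lower with 4596 counts in AL and 2798 in DR, and Elovl5, which lengthens polyunsaturated chains, with 10404 and 7224. Pparg, which favours fat storage, had 306 and 179 counts (log2 fold change -0.59, -0.86 to -0.32). Fads2, Me1, Gpam, Dgat1 and Nr1h3 were not called in either direction with totals, but Fads2 was called lower with size factors (log2 fold change -0.39). The remaining gene called lower with totals was Scd1, the stearoyl-CoA desaturase, with 106055 counts in AL and 0 in DR. This value needs care, because Scd1 was at 0 in all 5 DR libraries of the series and had at least 100 counts in each of the 10 others, with 81564 in the DR-AL liver library. No other named locus had this pattern for any diet. Whether the transcript was absent or the locus was left uncounted in these libraries was not tested, and no fold change is given. The related Scd2 had 99 and 142 counts (log2 fold change 0.70, 0.32 to 1.09). Apart from Scd1, 3 of the 31 other genes of lipogenesis were lower.

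RNA of cholesterol synthesis genes was higher along nearly the whole pathway. The kinases and the decarboxylase that act on mevalonate were higher, with 196 counts in AL and 714 in DR for Mvk, 524 and 1393 for Pmvk and 127 and 759 for Mvd. Idi1, an isomerase, had 1455 and 7212 counts and Fdps, which makes farnesyl diphosphate, 1097 and 7463. The log2 fold change of Fdps was 2.95 (2.86 to 3.04). Steps after squalene were also higher. Sqle, the epoxidase, had 404 and 2286 counts, Lss 537 and 1816, Cyp51 1674 and 6054, Nsdhl 576 and 3066, and Dhcr7 668 and 2180. Hsd17b7 was not called, with 1390 counts in each library. Hmgcs1 was listed at 0 in both libraries and was not tested.

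The genes that regulate cholesterol moved in a less uniform way. Insig1 and Insig2, which both hold the sterol sensor in the endoplasmic reticulum, went in opposite directions. Insig1 had 3426 counts in AL and 8042 in DR, while Insig2 had 4327 and 1585 (log2 fold change -1.26, -1.35 to -1.18). Srebf2, the factor of the sterol pathway, had 1080 and 1312 counts, a smaller difference than that of Srebf1. The sensor Scap and the receptors Lrp1 and Scarb1 were not called.

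**Figure D2:**
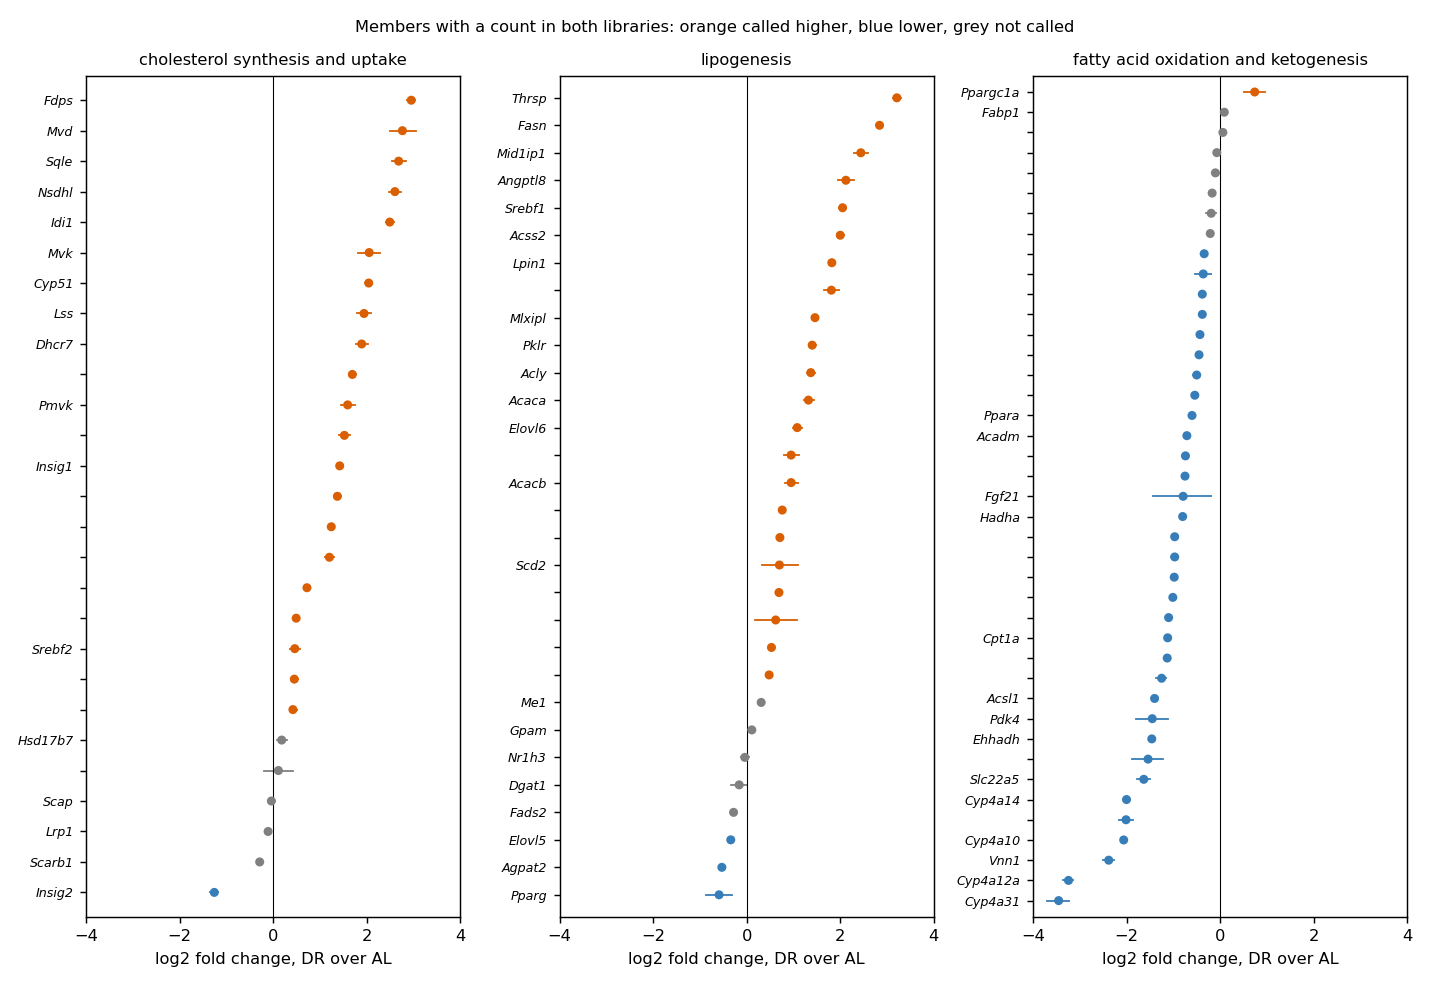
Log2 fold change of DR over AL (x axis) for each gene of 3 groups with counts in both libraries, with exact 95% intervals for counting error as lines; orange was called higher, blue lower and grey not called (genes given in the text are labelled, and a few not reported here are left out). Fdps at 2.95 and Thrsp at 3.21 lead the first and second panels, and Cyp4a31 at -3.45 ends the last.

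The promoters of the cholesterol genes were examined because these genes moved together. RefSeq (GRCm38.p6) gave the 250 bases before the start of transcription for 22 of the 31 genes tested. The CCAAT box, the motif of the factor NF-Y, was searched on both strands as CCAAT, which reads ATTGG on the other strand. It was in the window of 18 of the 22 genes (81.8%), against 37.5% of all 27025 genes with a window. Of the 17 such genes called higher 15 held it, and of the 5 not called higher 3 did. The GC box, searched as GGGCGG on both strands, was in 19 of the 22 genes, against 35.4% of all genes, and in all 5 that were not called higher. A core of the sterol element, searched as TCACNCCAC on both strands, was in 0 of the 22 windows and in 1.22% of all genes. A match is a stretch of letters and not a site shown to be bound. The list was chosen with earlier results known, and the CCAAT and GGGCGG motifs after other motifs had been looked at. All genes with a window include genes not tested in liver. These shares therefore describe the windows and do not test a link to the fold changes. The 3 genes with the largest fold change among those with a single window are shown, read 5′ to 3′ along the gene, with each CCAAT or ATTGG in capitals. They are Mvd (chr8:122443423-122443672, minus strand), Nsdhl (chrX:72918271-72918520, plus strand) and Idi1 (chr13:8885356-8885605, plus strand). Each window held 2 copies, and the last began between 14 and 27 bases before the start.
Mvd: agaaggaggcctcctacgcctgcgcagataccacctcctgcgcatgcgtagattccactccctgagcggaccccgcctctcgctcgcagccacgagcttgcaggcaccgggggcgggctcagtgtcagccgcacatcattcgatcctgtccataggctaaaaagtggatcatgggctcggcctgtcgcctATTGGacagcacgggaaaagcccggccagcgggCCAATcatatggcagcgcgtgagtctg
Nsdhl: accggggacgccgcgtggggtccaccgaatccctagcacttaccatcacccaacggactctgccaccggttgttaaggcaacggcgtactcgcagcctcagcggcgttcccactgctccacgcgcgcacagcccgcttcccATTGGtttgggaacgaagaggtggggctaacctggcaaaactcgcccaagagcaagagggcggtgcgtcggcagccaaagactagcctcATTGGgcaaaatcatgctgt
Idi1: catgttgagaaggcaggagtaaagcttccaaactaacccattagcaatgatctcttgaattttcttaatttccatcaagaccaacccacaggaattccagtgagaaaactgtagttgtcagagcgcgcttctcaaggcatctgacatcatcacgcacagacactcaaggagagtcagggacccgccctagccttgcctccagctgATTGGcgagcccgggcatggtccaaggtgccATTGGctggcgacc

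Genes that burn fatty acids were lower in the restricted liver, the opposite of the genes that make them. Of 44 genes of fatty acid oxidation and ketogenesis tested, 35 were called lower, 18 of them at least 2-fold, and 2 were higher. The median was -0.80 with totals and -0.91 with size factors, and 35 were lower under both scalings.

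Genes of the entry of fatty acids into mitochondria were lower. Acsl1, which activates the fatty acid, had 52196 counts in AL and 17437 in DR. Cpt1a, the gate of the mitochondrion, had 17226 and 6978 (log2 fold change -1.12, -1.16 to -1.08). Slc22a5, the carnitine transporter, had 1742 and 494 on a locus that also carries the name Slc22a21. The enzymes of the spiral were lower by smaller amounts, with 11633 and 5880 counts for Hadha and 14675 and 7905 for Acadm. In the peroxisome, Ehhadh had 19932 counts in AL and 6356 in DR (log2 fold change -1.46, -1.51 to -1.42). The microsomal Cyp4a enzymes, which include known targets of Ppara, were also lower. Cyp4a14 had 106229 and 23441 counts, Cyp4a10 had 83883 and 17748, and Cyp4a31 had 1917 and 154. These genes are near-identical neighbours that can share reads, so the split between them is uncertain, but each was lower. Vnn1, another target of Ppara, had 3997 and 674 counts (log2 fold change -2.38, -2.50 to -2.27).

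The regulators of fasting gave a mixed picture. Ppara itself had 8626 counts in AL and 5025 in DR (log2 fold change -0.60, -0.65 to -0.54). Fgf21, a hormone that the fasted liver secretes, had 69 and 35 (log2 fold change -0.79, -1.43 to -0.19), and Pdk4, which spares glucose, was 2.73-fold lower. Ppargc1a, a coactivator of fasting metabolism, was called higher with 292 and 430 counts. The other gene called higher, the glycerol channel Aqp7, had 0 and 6 counts. Fabp1, which carries fatty acids in the cytosol, was not called, with 114836 and 107507 counts.

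Transcripts of lipid droplet proteins were lower. Of 18 genes tested, 11 were called lower, 4 of them at least 2-fold, and 0 higher. Plin2, the coat protein of hepatic droplets, had 15375 counts in AL and 5596 in DR (log2 fold change -1.27, -1.32 to -1.23). G0s2, an inhibitor of the lipase Pnpla2, had 3060 and 547 (log2 fold change -2.30, -2.43 to -2.17), and Pnpla2 itself 3812 and 2404. The locus of Cidec on its annotated strand had 249 and 42 counts, while a locus of the same name on the opposite strand had 131 and 161.

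Genes of glucose metabolism differed in both directions. Of 29 genes, 15 were called higher and 8 lower, or 9 and 8 with size factors. Among genes of sugar uptake and use, the regulatory protein Gckr had 2593 counts in AL and 4646 in DR, the glucose transporter Slc2a2 8172 and 11653, and the fructokinase Khk 8897 and 14812. Pygl, which breaks down glycogen, was also higher with 7305 and 8297 counts, and Ppp1r3g, which promotes glycogen storage, was lower with 204 and 68. Of the genes of glucose production, G6pc, which releases free glucose, had 9884 and 2981 counts (log2 fold change -1.54, -1.60 to -1.49). Fbp1 had 31169 and 17525, Pcx 14946 and 9243, and Pck1 102292 and 68078 (log2 fold change -0.40, -0.42 to -0.39). Enzymes that handle glycerol and lactate were lower too, with 14571 and 5739 counts for Gpd1 and 23338 and 11153 for Ldha. Glycogen synthase, Gys2, was not called, with 8261 and 8182 counts. Few signalling genes were called higher. Of 29 genes of insulin, FoxO and mTOR signalling, 1 (3.45%) was called higher, Pik3r1 with 1110 and 1918 counts, and 5 (17.2%) lower. The shares of all loci were 18.6% and 10.3%. With size factors 1 was higher and 9 lower, and the shares of all loci were 13.6% and 15.1%. Among the 5 called lower with totals were Igfbp1, a target of FoxO1, with 2772 and 562 counts, and Sesn2 with 437 and 185.

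Male-biased genes of the liver were lower and female-biased genes higher in the DR library, although both pools were of males. Of 28 male-biased genes tested, 23 were called lower, 16 of them at least 2-fold, and 2 were higher. Of 28 female-biased genes, 19 were higher, 18 of them at least 2-fold, and 2 were lower. The medians were -1.26 and 1.37, and -1.37 and 1.26 with size factors. Both lists hold close paralogs, so that members are not independent.

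Among female-biased genes, several had few or no counts in AL and far more in DR. Cyp2b9, a cytochrome P450, had 7 counts in AL and 4551 in DR (log2 fold change 9.42, 8.48 to 10.84). Its neighbour Cyp2b13 had 0 and 160, or 60.6-fold higher when the AL library is set to a floor of 3 counts. The lower end of its interval was 5.61 on the log2 scale. The other large differences were in enzymes of steroids and drugs and in 1 regulator. Cyp2a4, a steroid hydroxylase, had 10 and 511 counts, and Cyp17a1, of androgen synthesis, 246 and 1340. Sult3a1, a sulfotransferase, had 1 and 256 counts, a ratio whose log2 lies between 5.69 and 13.49 from counting error. Cux2, a transcription factor of the female liver, had 61 and 451 counts (log2 fold change 3.06, 2.68 to 3.48). Not all of the list was detected in this way. Cyp3a16, Cyp3a44 and Sult2a2 had at most 12 counts in either library and were not called, and Cyp3a41a and Cyp3a41b were listed at 0 in both. Cyp4a10 was lower and is also a target of Ppara. Fam102a, with 1065 and 467 counts, was the other gene called lower.

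Male-biased genes were lower over a wide range of abundance. Serpina1e, a serine protease inhibitor, had 144553 counts in AL and 7668 in DR (log2 fold change -4.05, -4.09 to -4.02). Its paralogs Serpina1a, Serpina1b, Serpina1c and Serpina1d had between 59074 and 128570 counts in each library and were not called. These genes are close copies that can share reads, so the split between them is uncertain. Over the Serpina1 and Serpina3 families the sum was 32900 CPM in AL and 23000 in DR. Selenbp2 had 3907 and 235 counts (log2 fold change -3.87, -4.07 to -3.68). Lower counts were also found in enzymes of fatty acids and steroids. Cyp4a12a had 9412 and 874 counts, Cyp4a12b 4136 and 225, Elovl3 3284 and 393, and Hsd3b5 2042 and 487. Cyp7b1, an oxysterol hydroxylase, had 8543 and 2127, and Cyp2d9 64443 and 21792. Moxd1 had 167 counts in AL and 0 in DR, or 49-fold lower when DR is set to the floor. The end of its interval nearest to no difference was -5.3 on the log2 scale. Slco1a1, Cyp2f2 and Sult5a1 were lower by less than the threshold.

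**Figure D3:**
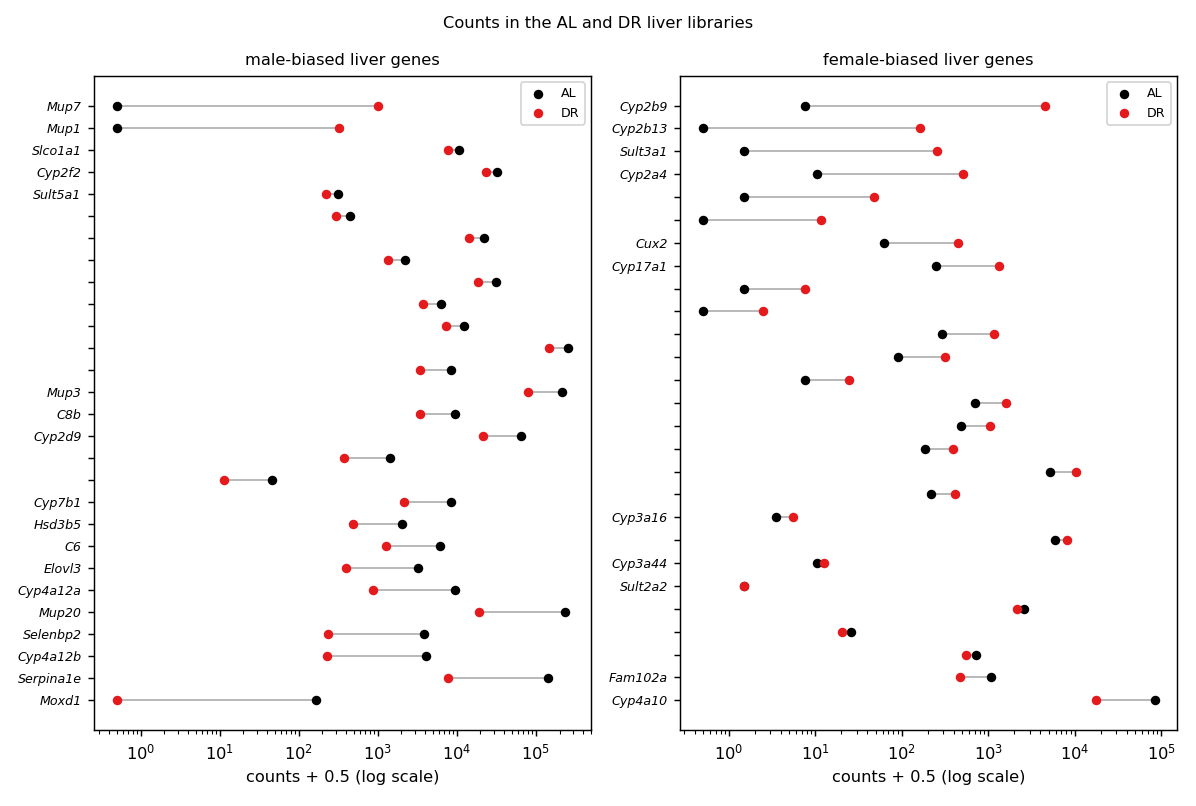
Counts plus 0.5 on a log scale (x axis) of the male-biased genes (left) and female-biased genes (right) tested, black for the AL library and red for DR, with genes given in the text labelled and any not reported here left out. Red lies left of black for 26 of 28 male-biased genes, with Mup1 and Mup7 as the exceptions, and Cyp2b9 shows the widest gap on the right.

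The major urinary proteins, pheromone carriers that the male liver makes in large amounts, differed by locus. Mup20 had 233725 counts in AL and 19246 in DR (log2 fold change -3.42, -3.44 to -3.40). Mup3 had 213332 and 80350, and Mup21 9599 and 2669. By contrast, 12 loci, those of Mup1, Mup2, Mup7 to Mup17, Mup19 and LOC100048884, were at 0 in AL and summed to 9958 counts in DR. These genes are near-identical copies, several loci carry more than 1 of their names, and how reads were shared among them is not known. The 2 genes called higher among the male-biased genes, Mup1 and Mup7, are loci of this kind. Over all 18 loci of the family the sum was 457111 counts in AL and 112338 in DR, or 18480 and 5161 CPM.

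The growth hormone axis stood close to the background in the higher direction, and its hormone receptor and main product were not called. Of 19 genes, 4 (21.1%) were called higher and 3 (15.8%) lower, against 18.6% and 10.3% of all loci. With size factors 4 were higher and 6 lower. Igf1, the circulating growth factor that growth hormone induces, had 20208 counts in AL and 17960 in DR (log2 fold change 0.01, -0.01 to 0.04). The receptor Ghr had 13748 and 11113, and Stat5b, which carries its signal, 1021 and 749, neither of them called. Bcl6, a repressor in the same network, had 411 and 1481 counts (log2 fold change 2.03, 1.88 to 2.19). Prlr, the prolactin receptor, had 2817 and 5532.

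Bile acid genes were also near the background in the higher direction. Of 30 tested, 6 (20%) were called higher and 5 (16.7%) lower, or 5 and 9 with size factors. The shares of all loci were 18.6% and 10.3% with totals, and 13.6% and 15.1% with size factors. Cyp8b1, which sets the share of cholic acid, had 25071 counts in AL and 3328 in DR (log2 fold change -2.73, -2.78 to -2.68), and Cyp7b1 of the alternative branch was lower as given above. Cyp7a1, the first enzyme of the classical branch, was not called with 7061 and 5958 counts. Cyp2c70, which makes muricholic acids in mice, had 3217 and 8375 counts and Cyp39a1 541 and 1229. The export pumps went apart, with 6045 and 10021 counts for Abcb11, which exports bile salts, and 11423 and 4605 for Abcb4, which exports phospholipid.

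Genes of detoxification were higher more often than lower. Of 50 members of cytochrome P450 families 1 to 3, 22 were called higher, 15 of them at least 2-fold, and 5 lower. Of 45 genes of conjugation, 20 were higher and 8 lower. Glutathione transferases led the latter group. Gstm3 had 258 counts in AL and 5877 in DR (log2 fold change 4.69, 4.51 to 4.88), Gstm2 had 1187 and 4107, and Gstm1, the most abundant, 34772 and 83254. Gsta2 had 1078 and 3092. These families hold near-identical copies, and the split between copies is uncertain. The glucuronosyltransferases Ugt2b1, with 17568 and 7412 counts, and Ugt2b37, with 121 and 10, were lower. Among the P450 enzymes, the constitutive drug metabolizers Cyp1a2, with 13894 and 25352 counts, and Cyp2a5, with 33939 and 72594, were higher, and Cyp2e1, with 389254 and 265327, was lower. Of 27 Nrf2 and antioxidant genes, 7 were higher and 7 lower, and Gstm1, Gsta1 and Gsta2 were the only ones higher at least 2-fold.

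The clock genes of the 2 libraries stood at different levels. Of 15 core genes, 5 were called higher and 3 lower, and of 20 output genes 10 were higher and 3 lower, or 9 and 6 with size factors. Arntl, the activator also known as Bmal1, had 64 counts in AL and 7 in DR (log2 fold change -2.93, -4.38 to -1.88). Its partner Clock had 758 and 370. The repressors were higher, with 861 and 1511 counts for Per1, 587 and 1435 for Per2 and 690 and 1250 for Per3. Genes under the control of Arntl and Clock were higher with them. Dbp had 1417 and 2758 counts, Ciart, listed as Gm129, 367 and 1061, and Nr1d1 1858 and 2763. Nfil3, which binds the same elements as Dbp and represses them, had 448 and 120 (log2 fold change -1.71, -2.02 to -1.42). The levels of these genes follow the time of day, and the diets cannot be told apart from the hour of killing or of feeding here. Several genes named above, among them Insig2 and Cyp7a1, are also known to vary over the day. Among 20 targets of glucocorticoids, which peak before feeding, 10 were higher and 4 lower. Fkbp5 had 1535 and 3074 counts and Zbtb16 460 and 1436, while the receptor Nr3c1 had 1559 and 1072.

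Lists of inflammation and innate immunity, other than coagulation, were called lower more often than the 10.3% of all loci. The share of all loci called higher was 18.6%. Saa1, an acute phase apolipoprotein, had 2790 counts in AL and 150 in DR (log2 fold change -4.03, -4.28 to -3.80). Saa2 had 1121 and 56, and the split between Saa1 and Saa2 is uncertain because they are near-identical. Of 29 acute phase genes, 8 (27.6%) were lower and 5 (17.2%) higher, and the most abundant fibrinogen chains, haptoglobin and Orm1 were not called. The list does not move as 1 block. Hamp2, a hepcidin, had 176 and 2114 counts (log2 fold change 3.77, 3.55 to 4.00), and Hamp, the hepcidin that controls iron, 19293 and 27621. Ttr, which falls in inflammation, had 145931 and 236796. Of 25 complement genes, 9 (36%) were lower, 13 with size factors, and 0 higher. The membrane attack genes stood out, with 6140 and 1278 counts for C6, 15952 and 6281 for C8a, 9444 and 3397 for C8b and 14561 and 3418 for C9. C6 and C8b are also on the male-biased list. C3, the most abundant, was not called with 170158 and 154157 counts. Of 39 interferon-stimulated genes, 16 (41%) were lower and 2 (5.13%) higher, or 19 and 0 with size factors. Rsad2 had 230 and 67 counts, Ifit1 281 and 91, Oasl1 252 and 86 and Cxcl10 82 and 25. Of 24 genes of antigen presentation, 8 (33.3%) were lower and 3 (12.5%) higher, with Cd74 at 1591 and 1002 counts. Of 28 coagulation genes, 3 (10.7%) were lower and 4 (14.3%) higher. Summed levels went both ways. They were higher in DR for acute phase genes (41450 CPM in AL and 48420 in DR), antigen presentation (6981 and 7232) and coagulation (27810 and 29480). They were lower for complement (17740 and 15010) and interferon-stimulated genes (1250 and 1211).

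Lists of stress and protein synthesis held fewer differences of at least 2-fold than those of lipogenesis, cholesterol synthesis and fatty acid oxidation. Of 28 genes of the endoplasmic reticulum, 11 were called higher and 1 lower. Manf had 1608 counts in AL and 2932 in DR, Syvn1 1555 and 3060, and Hspa5, the chaperone BiP, 15815 and 18324. Of 26 cytosolic heat shock genes, 7 were higher and 0 lower, but 4 and 4 with size factors. Ribosomal protein genes were higher by small amounts, with 45 of 82 called higher, 0 lower and a median of 0.35. With size factors 26 were higher and the median was 0.25. The 79 nuclear genes of the respiratory chain gave 36 higher and 0 lower, and 22 and 1 with size factors. Of 28 genes of the ATF4 response, 5 were higher and 5 lower. Of 39 proteasome genes, 3 were higher and 4 lower with totals, and 2 and 11 with size factors. Of 35 genes of autophagy and the lysosome, 1 was higher and 6 lower with totals, and 1 and 15 with size factors. Of 44 genes of cell division, 4 were higher and 8 lower, and 7 of the 8 had at most 25 counts in AL. Ccnd1, cyclin D1, was higher with 371 and 852.

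Amino acid metabolism stood close to the background in the higher direction and above it in the lower direction. Of 50 genes of amino acid breakdown and the urea cycle, 10 (20%) were called higher and 14 (28%) lower. The shares of all loci were 18.6% and 10.3%. With size factors 6 were higher and 20 lower, and the shares of all loci were 13.6% and 15.1%. With totals 2 were lower at least 2-fold. Cps1, the entry to the urea cycle, had 87277 counts in AL and 77601 in DR and was not called. Aadat, of lysine and tryptophan breakdown, had 4856 and 1969 counts, and Mat1a, which makes S-adenosylmethionine, 144762 and 80258. Of 27 genes of apolipoproteins and lipoprotein handling, 10 were higher and 8 lower, or 6 and 8 with size factors, with 122477 and 71073 counts for Apob and 48605 and 68649 for Apoc3. Vldlr, a lipoprotein receptor, had 41 and 185 counts (log2 fold change 2.34, 1.86 to 2.88). Of 18 genes that write, erase or read DNA methylation, 3 (16.7%) were higher, near the 18.6% of all loci, and 0 lower. Tet2, which oxidizes methylcytosine, had 172 and 309 counts, and Dnmt1 and Dnmt3a were not called, with 192 and 204 counts for the former and 329 and 335 for the latter.

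**Figure D4:**
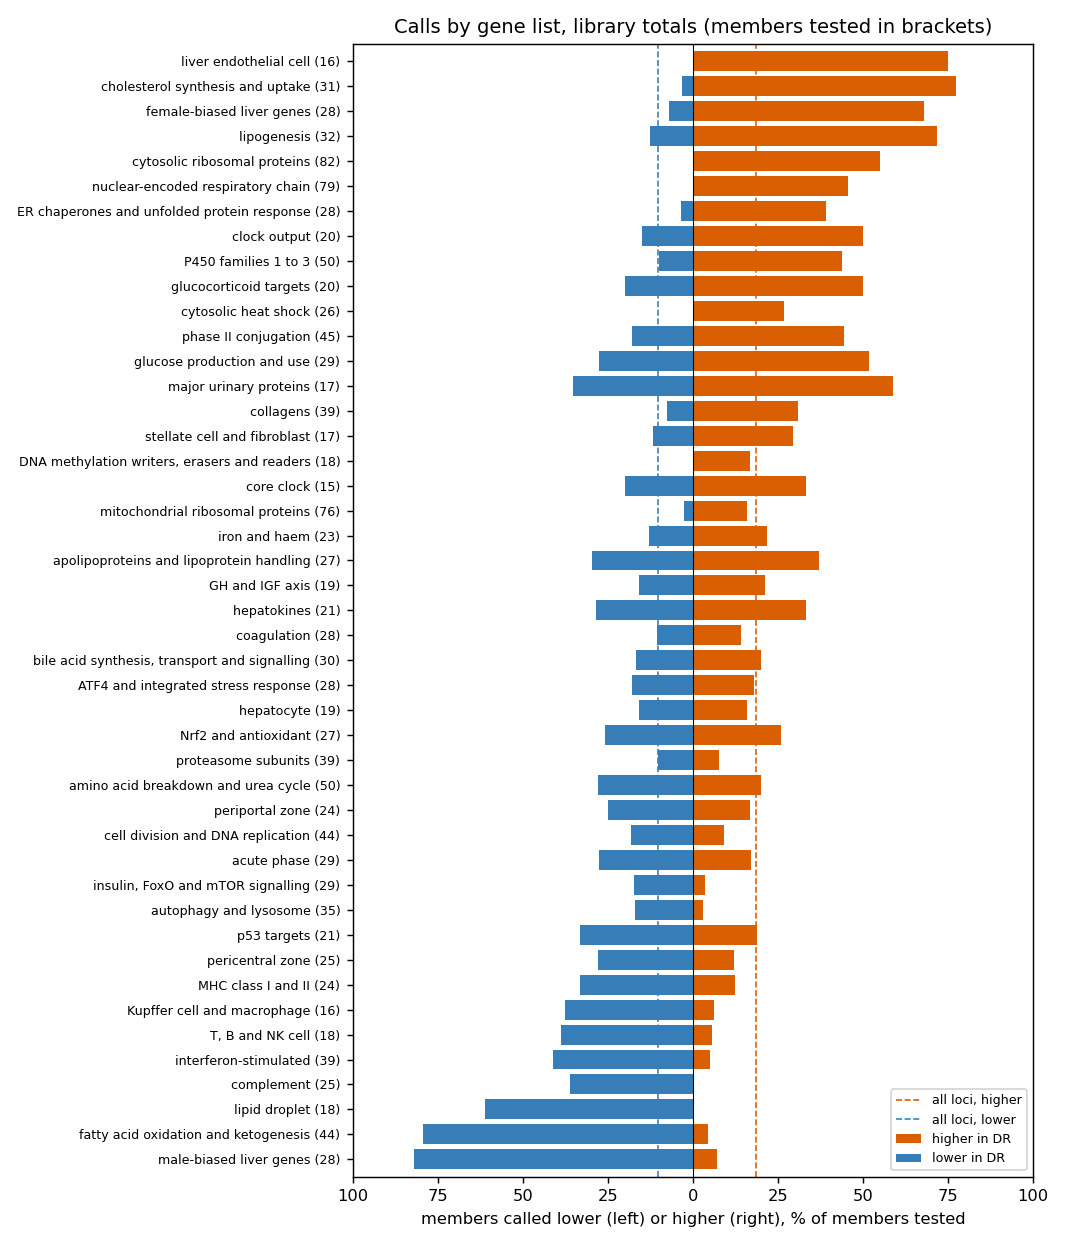
Share of the members tested in each list of at least 15 genes (y axis, number tested in brackets) that were called higher (orange, right) or lower (blue, left) in DR, in percent (x axis), with dashed lines at the shares of all loci, 18.6% and 10.3%. The skeletal muscle list, with 88.5% of 26 genes called higher, was left out. Male-biased genes and fatty acid oxidation form the lower end, with 82.1% and 79.5% called lower, and cholesterol synthesis has 77.4% called higher.

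The labelled tissue was checked against markers. The hepatocyte markers summed to 101700 CPM in AL and 109600 in DR, far above every other cell type, and 3 of 19 tested were higher and 3 lower. Albumin was listed at 0 in both libraries and was not tested. Markers of both liver zones were detected. Of 25 pericentral genes, 3 were called higher and 7 lower, and of 24 periportal genes 4 were higher and 6 lower, so that neither zone moved as a whole. Endothelial markers were higher in DR, with 12 of 16 called and a sum of 285.8 CPM in AL and 429.9 in DR. Stab1 had 650 and 1060 counts and Eng 917 and 1401. Markers of Kupffer cells and macrophages summed to 308.6 and 255.2 CPM, and 6 of 16 were called lower, among them Clec4f with 1180 and 729 counts and Cd5l with 1298 and 710. Marco, a scavenger receptor of macrophages, was the exception with 192 and 548. Markers of T, B and NK cells were low, at 18.56 and 12.08 CPM, with 7 of 18 lower and 1 higher. In bulk RNA, fewer cells of a type and less RNA per cell cannot be told apart. Genes of the interferon response and of antigen presentation, of which some were called lower as given above, are also expressed by these cells, and the part of the cells in those results was not tested.

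Skeletal muscle genes were present in the DR library at a higher level than in AL. Of 26 muscle genes, a list added after the data were seen, 23 were called higher, 19 of them at least 2-fold, and their sum was 80.01 CPM in AL and 395.1 in DR. The DR-AL liver library had 522.6. Acta1, skeletal actin, had 170 and 1326 counts, Ttn, titin, 40 and 410, Myh2 41 and 457, and Mb, myoglobin, 115 and 726. Of the 15 largest differences higher in DR by the rule for named genes, 5 were muscle genes, namely Myh2, Ttn, Mybpc1, Acta1 and Tcap. Myh4, a fast myosin, was the only member called lower, with 36 and 0 counts. The part of muscle RNA in the other results was not tested. No gene of the muscle list is on any of the other lists, but this reflects only how the lists were made. Other lists can hold genes that muscle also expresses, such as Des among the stellate cell markers (log2 fold change 1.38).

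Some RNA that is mostly nuclear or ribosomal also took more of the DR library. Malat1, a nuclear RNA, had 4420 counts in AL and 15796 in DR, while Neat1 had 3220 and 2926 and was not called. Rn45s, the ribosomal precursor, had 211433 and 443899, and a locus antisense to Filip1l 103268 and 219460. Without Rn45s and both loci named Filip1l in the totals, 3349 loci were called higher and 1591 lower.

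**Figure D5:**
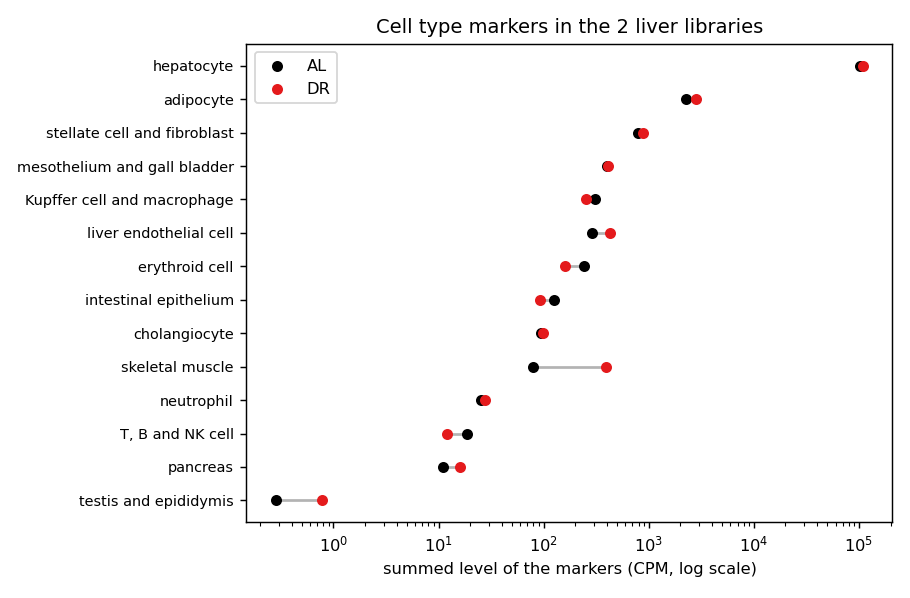
Summed level of the markers of each cell type (y axis) in the AL library (black) and the DR library (red), in CPM on a log scale (x axis). The sums lie close together for most cell types, and skeletal muscle differs most among those above 10 CPM, at 80.01 CPM in AL and 395.1 in DR.

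Few differences were large enough to pass when spread between pools was allowed for by a preset value. Under an assumed coefficient of variation of 0.4 among pools, 17 loci were called higher and 8 lower. The 17 included Cyp2b9, Cyp2b13, Cyp2a4, Gstm3, Hamp2, Sult3a1, Chrna4 and 8 loci of the Mup family that were at 0 in AL. The 8 were Scd1, Moxd1, Gm15441, Saa1, Saa2, Serpina1e, Selenbp2 and Cyp4a12b. With a coefficient of 0.2, 209 were higher and 100 lower, and these included Fasn, Thrsp, Srebf1 and Sqle among the former and Cyp4a10, Cyp4a14, Cyp8b1, G6pc, Igfbp1 and Arntl among the latter. The true spread between pools of mice on 1 diet was not measured, so that these values show only how large a difference each assumption requires.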

How the data were processed

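Total RNA of 5 mice was pooled for each library, so that each diet has 1 liver library. Per the study's methods, the authors trimmed bases of low quality and adaptors, aligned reads with strand kept in Strand software and removed duplicate reads before counting. Removal of duplicates can compress the counts of abundant transcripts. The authors deposited raw counts and FPKM values (scaled by the authors for length and depth) for each locus. The counter and its annotation are not given in the sources used here. The submitters' processing notes name mm9 and DESeq2, whereas the methods name mm10, so the positions of loci were not used. All 30 value columns were matched to the 15 libraries.

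Raw counts were scaled to the library total over named loci, and unnamed loci held 0.258% of counts in AL and 0.292% in DR. Each of the 16884 loci was tested with the two-sided Z test of the study's methods on square roots of scaled counts, with Benjamini-Hochberg adjustment over all loci. A call required an adjusted p below 0.05 and a level at least 25% above that of the other library, or a fold change of at least 2 for the stricter call. Intervals are exact Clopper-Pearson 95% intervals of the ratio and cover counting error only, for reads that carry no molecular identifiers. Medians of lists used loci with a mean of at least 10 counts. A locus at 0 in 1 library was set against a floor of 3 counts in that library, which is 0.121 CPM in AL and 0.138 in DR. An exact 0 can be a failed estimate, because albumin and Hmgcs1 were listed at 0 in all 15 libraries. Of the named loci, 677 carry more than 1 gene name.

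Genes were described in 57 lists. The members, lists and motifs were chosen with earlier results of these data known. The list of skeletal muscle genes and the totals without Rn45s and both loci named Filip1l were added after the data were seen, and the CCAAT and GGGCGG motifs were chosen after other motifs had been looked at. Genes named were the 15 largest differences in each direction with a mean of at least 100 counts and at least 10 in both libraries, loci with at most 3 counts in 1 library and at least 100 in the other, list members, first the 6 with the largest difference and those with the highest counts, and paralogs of these. A gene with several loci took the one on the strand of GENCODE M21, then the one with most counts. Of 21384 loci with 1 name in that annotation, 20448 lay on its chromosome and strand. Pgm1 was looked up under the older symbol Pgm2. Promoters came from RefSeq (GRCm38.p6). A few genes that the rule names are not reported here.

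Alternatives were size factors (DESeq2 1.42.0), TMM (edgeR 4.0.16), totals without the 10 most abundant loci, a mean of at least 10 counts, loci with 1 name, all loci, an exact binomial test, FPKM with a pseudocount of 0.1 or 1, and edgeR's exact test with a preset coefficient of variation of 0.1, 0.2 or 0.4. R 4.3.3, Python 3.11.15, numpy 2.4.6, pandas 2.3.3, scipy 1.17.1 and matplotlib 3.10.9 were used, and the Z test was tested on simulated data.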

Additional observations from a re-analysis of the deposited data

How the results depend on the processing

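The share of called loci that were higher in DR was 64.5% with totals, and it turned to 47.5% with size factors. It was 50.1% with TMM, 67.8% without the 10 most abundant loci and 67.8% without Rn45s and both loci named Filip1l, the last chosen after seeing the data. With FPKM it was 53.8% at a pseudocount of 0.1 and 50.8% at 1. With a preset coefficient of variation of 0.1, 1049 loci were higher and 525 lower, 559 and 276 of them at least 2-fold, and the share was 66.6%. At 0.2 there were 209 and 100, all at least 2-fold, with a share of 67.6%, and at 0.4 there were 17 and 8, with a share of 68%. FPKM with a pseudocount of 1 gave 2020 higher, 255 of them at least 2-fold, and 218 lower at least 2-fold. The other counts of called loci stayed within 1.5 times the main ones. Both merged loci that turned did so with FPKM, Mafg,Sirt7 to -0.008 at either pseudocount, and Mrps6,Slc5a3 to -0.14 at 0.1 and -0.13 at 1. Of the 661 called genes that the rule names, 572 kept their call with size factors and 89 lost it, and none turned. The cause was not tested.

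The main limit is 1 pooled library for each diet. No paired analysis was possible because each diet has 1 library and the labels carry no replicate numbers, and for the same reason no library was left out. Counting error was small at this depth for abundant loci, but the spread between mice or pools was not measured. Diet cannot be told apart from library preparation, hour of killing or time since feeding. Loci at 0 and near-identical copies depend on counting rules that are not known here.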

Other observations

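Some of the largest differences were in genes outside the groups described. Rgs16, a regulator of G protein signalling, had 1604 counts in AL and 11335 in DR (log2 fold change 3.01, 2.93 to 3.08). Chrna4, a subunit of the nicotinic acetylcholine receptor, had 6 and 154 counts, while Chrna2, another subunit, had 303 and 37. Clstn3, a calsyntenin, had 797 and 90 counts (log2 fold change -2.96, -3.29 to -2.65). Hist1h1c, a linker histone, had 1593 and 269 counts, and E2f8, a repressor of the cell cycle, 195 and 32 on its annotated strand. Gm15441 had 247 and 4.

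The remaining lists had smaller or mixed differences, beside 18.6% of all loci called higher and 10.3% lower. Of 21 hepatokines, 7 were called higher and 6 lower, and of 21 targets of p53, 4 were higher and 7 lower. Among the latter, Gadd45a, which responds to DNA damage, had 45 and 105 counts, and Btg2, which restrains growth, 267 and 112. The sirtuins and enzymes of NAD gave 2 higher and 1 lower of 10, and Sirt1, a deacetylase often studied in dietary restriction, was not called with 270 and 267 counts. Of 23 genes of iron and haem, 5 were higher and 3 lower. Mitochondrial ribosomal proteins gave 12 higher (15.8%) and 2 lower (2.63%) of 76, or 3 and 6 with size factors. Of 39 collagens tested, 12 were higher and 3 lower. Of 14 members of the Serpina1 and Serpina3 families, 3 were lower. Stellate cell markers summed to 787.2 CPM in AL and 889.3 in DR, and cholangiocyte markers to 94.48 and 97.81. Erythroid markers summed to 244.7 and 158.4 CPM, of which Alas2, the erythroid enzyme of haem synthesis, had 2627 and 772 counts and Hba-a1, of haemoglobin, 1983 and 1750. Neutrophil markers summed to 25.47 and 27.7 CPM, and markers of the pancreas to 10.92 and 15.99. Intestinal markers summed to 126.3 and 91.84 CPM, and those of testis and epididymis to 0.283 and 0.781. Adipocyte markers summed to 2282 and 2815 CPM, and markers of mesothelium and gall bladder to 399.8 and 412.4.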
